A study of Mus musculus with 4 samples.

Results

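Among 9 genes of the transforming growth factor beta (TGF-beta) and bone morphogenetic protein (BMP) pathways, the ligand gene *Bmp7* stood apart in splenic CD4+ T cells. It averaged 5.20 CPM (counts scaled to a library of 1e+06 reads) in libraries labelled wild type (WT) and 45.4 CPM in libraries labelled *Satb1* conditional knockout (cKO). The other 8 genes differed between the labels by between -0.15 and 0.39 on the log2 scale. The 9 genes are *Bmp7*, *Tgfb1*, *Bmpr2*, *Tgfbr1*, *Tgfbr2*, *Tgfbr3*, *Smad3*, *Smad7* and *Skil*, out of 55367 gene symbols counted. They were chosen by gene symbol with the CPM values of these same libraries already known. Their levels and differences are therefore given as a description, and where a count of calls includes them nothing is read from it.

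RNA-seq was run on CD4+ T cells sorted from C57BL/6 spleens, giving 4 libraries of gene counts, 2 under each genotype label, which the study calls biological replicates. SATB1 is a nuclear protein that organizes chromatin in T cells. In the cKO mice the floxed *Satb1* alleles (F/F) are deleted by Cre under the ThPOK driver, which acts once T cells commit to the CD4 lineage. The labels do not say whether the WT mice carried floxed alleles or Cre, and they give no age or sex. The study's methods speak of young adult mice of mixed sexes. The comparison asks which transcripts differ when SATB1 is lost from mature CD4+ T cells.

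The labels were checked with *Satb1*, *Foxp3*, *Xist* and *Ddx3y*. Library totals ran from 4495902 to 6555699 counts. *Satb1* had 5677 and 4390 counts under the WT label and 4958 and 3986 under the cKO label, with a log2 fold change of -0.05 (95% interval -0.32 to 0.23), so gene-level counts do not set the labels apart and each direction below follows the label. *Foxp3*, in contrast, was 3.62-fold higher under the cKO label (edgeR adjusted p = 0.000447), with 2082 of its 4577 exonic bases shared with other annotated genes. *Xist*, which is expressed from the inactive X chromosome, had 5447 and 4235 counts under WT and 9 and 6 under cKO, whereas counts of the Y-linked *Ddx3y* were 0 and 0 under WT, then 525 and 597 under cKO. Sex and genotype label cannot be told apart for any gene here. *Cd4* and *Cd3e* were abundant in every library, at 1183 CPM or more and 788 CPM or more. Of 6 CD4 T cell markers, *Zbtb7b*, which encodes ThPOK, was called higher under the cKO label (232 and 200 against 338 and 345 CPM, edgeR adjusted p = 0.0118) and *Thy1* lower (1184 and 1158 against 752 and 770 CPM, adjusted p = 0.0169).

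TGF-beta and BMP ligands are secreted dimers that bring type II and type I receptor kinases together on the cell surface. The type I receptor then phosphorylates SMAD proteins, SMAD2 and SMAD3 for TGF-beta and SMAD1, SMAD5 and SMAD9 for BMPs, which enter the nucleus with SMAD4. Inhibitory SMADs and the SKI family of corepressors hold the signal back. In CD4+ T cells TGF-beta restrains activation and helps induce *Foxp3*, the gene that defines regulatory T (Treg) cells.

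Promoter sequence from RefSeq (GRCm38.p6, the assembly also called mm10) was at hand for 5 of the 9 genes, namely *Bmpr2*, *Smad3*, *Tgfb1*, *Tgfbr1* and *Tgfbr2*, and not for *Bmp7*, *Tgfbr3*, *Smad7* or *Skil*. The 250 bases before the start are shown for *Tgfb1* and *Tgfbr2*, the ligand and the receptor with the highest levels among the 9 genes. The *Tgfb1* window lies at chr7:25686752-25687001 on the plus strand and the *Tgfbr2* window at chr9:116175364-116175613 on the minus strand. Capitals mark the GC box GGGCGG, which SP1-family factors bind, and the SMAD half-element CAGAC, both searched on either strand.
Tgfb1: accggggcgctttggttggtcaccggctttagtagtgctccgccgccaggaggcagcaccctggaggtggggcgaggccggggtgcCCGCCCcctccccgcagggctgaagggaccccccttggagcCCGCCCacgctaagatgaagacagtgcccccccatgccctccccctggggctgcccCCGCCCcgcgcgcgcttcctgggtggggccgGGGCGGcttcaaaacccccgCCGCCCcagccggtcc
Tgfbr2: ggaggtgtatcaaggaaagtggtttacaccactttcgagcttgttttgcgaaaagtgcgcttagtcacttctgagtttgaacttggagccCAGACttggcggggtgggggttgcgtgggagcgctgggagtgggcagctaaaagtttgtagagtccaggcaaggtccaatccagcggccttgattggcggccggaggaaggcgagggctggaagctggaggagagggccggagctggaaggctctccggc

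The *Tgfb1* window held 5 GC boxes and the *Tgfbr2* window 1 SMAD half-element. Over 32851 mouse promoter windows of the same length, 32.7% held a GC box and 42.2% a SMAD half-element, so either match is common. The *Tgfb1* window was 75.2% G and C, against a median of 52.4% over all windows. These matches describe the letters and not binding.

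The ligands were examined first. *Bmp7*, which encodes a BMP known for its role in kidney and skeletal development, is a minus-strand gene at chr2:172868012-172940321 (GRCm38, as are all positions given). Its counts were 24 and 30 for WT 1 and WT 2, then 246 and 207 for cKO 1 and cKO 2. Both cKO libraries were far above both WT libraries, and the cKO libraries lay close together.

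Scaled for depth, *Bmp7* was at 3.67 and 6.72 CPM in the WT libraries and 46.9 and 44.0 CPM in the cKO libraries. This gave 5.20 ± 2.16 CPM (SD, n = 2) against 45.4 ± 2.03 CPM (SD, n = 2). The WT libraries differed from each other by 1.83-fold, more than the median gene, at 1.10-fold. This is a log2 fold change of 3.18 (SE 0.24), or 9.09-fold with a 95% interval of 6.25 to 13.2. Leaving out 1 library at a time moved it between 2.76, without WT 1, and 3.62, without WT 2. In the fit over all genes *Bmp7* held rank 22 by log2 fold change among 12403 tested genes. Exons of other annotated genes do not overlap those of *Bmp7*. In bulk RNA, more cells that express *Bmp7* and more *Bmp7* RNA per cell cannot be told apart.

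**Figure D1:**
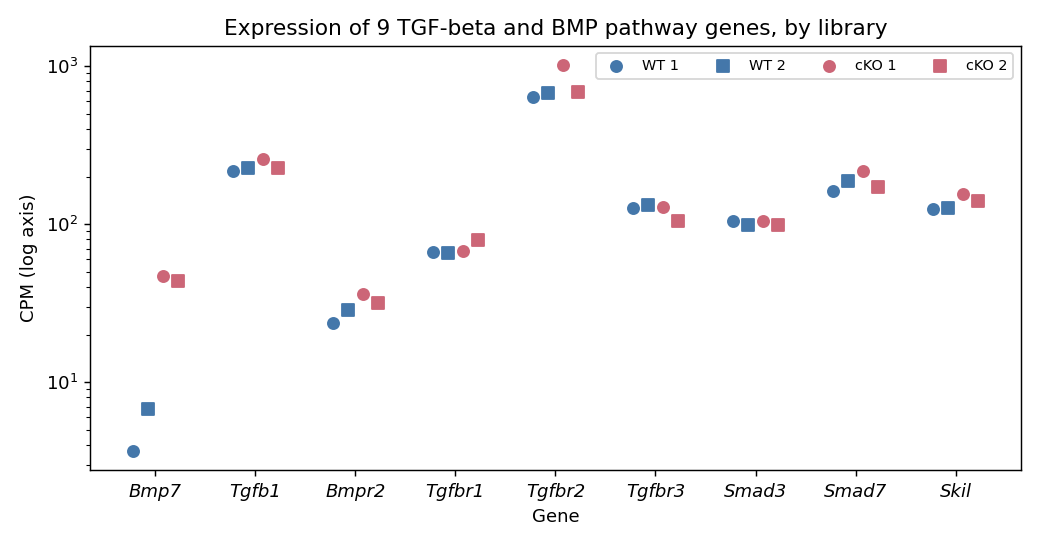
CPM of the 9 genes on a log axis, with 1 point per library (blue, WT; red, cKO; circles, replicate 1; squares, replicate 2). *Bmp7* shows a gap from 6.72 CPM in the higher WT library to 44.0 CPM in the lower cKO library, while points of the other genes lie close together.

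*Tgfb1* (chr7:25687002-25705077, plus strand), the main TGF-beta ligand of lymphocytes, was at 217 and 226 CPM in the WT libraries and 260 and 228 CPM in the cKO libraries. The groups did not overlap, but cKO 2 sat barely above WT 2. Its log2 fold change of 0.14 (95% interval -0.10 to 0.38) was 0.04 without cKO 1. Per kilobase of exonic sequence, a scale that allows levels to be compared between genes, the level of *Tgfb1* was 47.1 and 26.8 times that of *Bmp7* in the WT libraries. In the cKO libraries the same ratio was 4.43 and 4.12.

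Of the receptors, *Tgfbr2* (chr9:116084293-116175360, minus strand), the type II receptor that binds TGF-beta, had the highest level of the 9 genes per kilobase. It was at 636 and 672 CPM in the WT libraries, 1014 CPM in cKO 1 and 683 CPM in cKO 2. Only cKO 1 stood clear of the others, and the cKO libraries differed from each other by 1.49-fold. The log2 fold change of 0.38 (95% interval -0.02 to 0.77) was 0.06 without cKO 1 and 0.64 without cKO 2.

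*Tgfbr1* (chr4:47353222-47414931, plus strand), the type I receptor kinase that pairs with it, was at 66.2 and 66.1 CPM in the WT libraries and 67.8 and 79.1 CPM in the cKO libraries. Here cKO 2 was the higher library, and the log2 fold change was 0.15 (95% interval -0.12 to 0.42). It was 0.04 without cKO 2. Per kilobase, *Tgfbr2* exceeded *Tgfbr1* by 7.67-fold and 8.12-fold in the WT libraries, and by 11.9-fold and 6.89-fold in the cKO libraries, so this ratio overlapped between the labels.

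*Tgfbr3* (chr5:107106570-107289629, minus strand), which encodes betaglycan, a coreceptor that presents ligand, was at 126 and 133 CPM in the WT libraries and 128 and 105 CPM in the cKO libraries. It was the gene of the 9 with a negative log2 fold change, at -0.15 (95% interval -0.42 to 0.12), and its groups overlapped. Without cKO 1 the value was -0.30 and without cKO 2 it was -0.01. Of its 6545 exonic bases, 297 are shared with *Gm43422* on the same strand, where reads cannot be assigned.

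*Bmpr2* (chr1:59763400-59879014, plus strand), the type II receptor for BMP7 and other BMPs, was at 23.6 and 28.7 CPM in the WT libraries and 36.2 and 31.9 CPM in the cKO libraries. Both cKO libraries were above both WT libraries by a small margin. Its log2 fold change was 0.39 (SE 0.16, 95% interval 0.03 to 0.76), and ran from 0.25 without WT 1 to 0.53 without WT 2. Its exonic sequence is long, at 17983 bases, and per kilobase it had the lowest mean level of the 9 genes.

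Of the SMAD genes, *Smad3* (chr9:63646767-63757994, minus strand), a transducer of TGF-beta signals, had nearly the same level under both labels. It was at 104 and 99.5 CPM in the WT libraries and 105 and 99.5 CPM in the cKO libraries. The groups overlapped, and the 95% interval of the log2 fold change ran from -0.23 to 0.24. *Smad7* (chr18:75367529-75395935, plus strand), the inhibitory SMAD that TGF-beta itself induces, was at 162 and 187 CPM under WT and 217 and 172 CPM under cKO. Its log2 fold change of 0.16 (95% interval -0.14 to 0.46) was 0.32 without cKO 2 and -0.02 without cKO 1, so its sign rests on cKO 1.

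*Skil* (chr3:31095058-31122577, plus strand), which encodes the SKI-family corepressor SnoN, was at 125 and 126 CPM in the WT libraries and 156 and 140 CPM in the cKO libraries. The cKO libraries were both higher, by a small margin. Its log2 fold change of 0.24 (95% interval 0.003 to 0.47) was 0.16 without cKO 1.

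**Figure D2:**
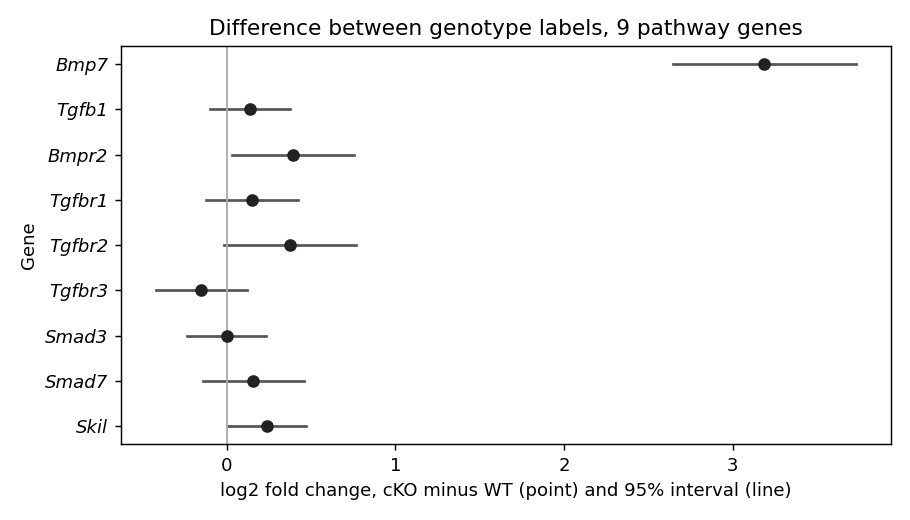
Log2 fold change (points, cKO minus WT) and 95% interval (lines) of the 9 genes from the fit over all genes. The *Bmp7* value of 3.18 lies apart from the other 8, which fall between -0.15 and 0.39.

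In the edgeR quasi-likelihood fit over all 12403 tested genes, 4.3% passed an adjusted p under 0.05, of which 2.35% were higher under the cKO label and 1.95% lower, both as shares of all tested genes. All 9 genes passed the low-count filter, and that count includes 1 of the 9, *Bmp7*. Libraries of the labels did not overlap, with cKO higher, for 6 of the 9 genes and for 24.8% of tested genes. Since the genes were chosen with this contrast known, nothing is read from these counts. The median log2 fold change was 0.16 over the 9 genes and -0.0015 over all tested genes. Without cKO 2 the calls took in 13.8% of all tested genes and 5 of the 9, with *Tgfbr2*, *Bmpr2*, *Smad7* and *Skil* beside *Bmp7*.

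Per kilobase, the order of mean levels was *Tgfbr2*, *Tgfb1*, *Smad7*, *Tgfbr3*, *Smad3*, *Skil*, *Tgfbr1*, *Bmp7* and *Bmpr2*. The ranges over the 4 libraries overlapped for *Tgfb1* and *Smad7* and for *Tgfbr3* and *Smad3*. Within each library *Tgfb1* was above *Smad7*. *Tgfbr3* was above *Smad3* except in cKO 2, at 16.11 against 17.95, so these have no clear order. The *Bmp7* range held that of *Bmpr2* and overlapped that of *Tgfbr1*. *Bmp7* was at 0.913 and 1.67 CPM per kilobase in the WT libraries, near *Bmpr2* at 1.31 and 1.59. In the cKO libraries it was at 11.7 and 10.9, near *Tgfbr1* at 10.4 and 12.1.

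**Figure D3:**
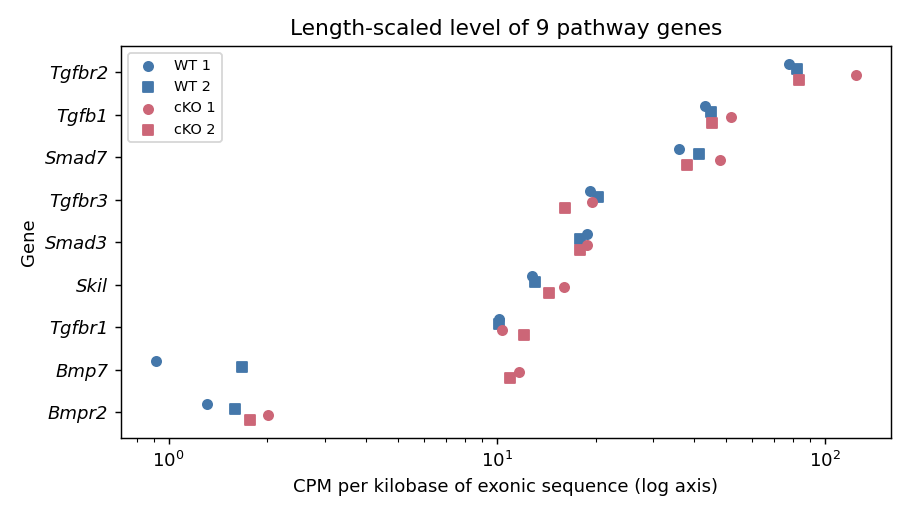
CPM per kilobase of exonic sequence of the 9 genes on a log axis, ordered by mean, with 1 point per library (blue, WT; red, cKO; circles, replicate 1; squares, replicate 2). *Tgfbr2* is highest in every library, from 77.7 to 123.9, and *Bmp7* sits with *Bmpr2* under WT and with *Tgfbr1* under cKO.

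The neighbourhood of *Bmp7* was then examined, since this was not used to choose the gene. Besides *Bmp7*, 13 tested genes lay within 500 kb of it on either side, and their log2 fold changes ran from -0.83 to 0.16. In the edgeR fit 0 of the 13 were called, 1 had an unadjusted p under 0.05, and DESeq2 also called 0. Over all genes 4.3% were called and 19.1% had an unadjusted p under 0.05, so few calls among 13 genes are near the background. The nearest, *Spo11*, which encodes the nuclease that starts meiotic recombination, lies 37.4 kb away, with counts of 27 and 27 under WT against 20 and 22 under cKO. *Pmepa1*, a gene induced by TGF-beta that encodes a membrane inhibitor of the pathway, starts 336 kb from the *Bmp7* start and differed by 0.15 (log2, edgeR adjusted p = 0.729).

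**Figure D4:**
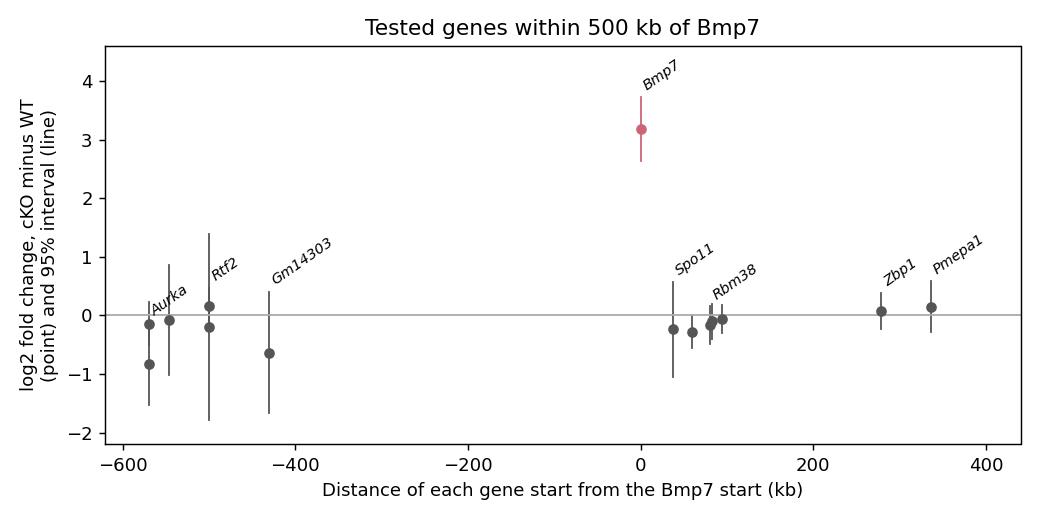
Log2 fold change (points, cKO minus WT) and 95% interval (lines) of tested genes within 500 kb of the *Bmp7* gene body, against the distance between gene starts in kb, in the direction of the chromosome. *Bmp7* is at 3.18 and its 13 neighbours lie between -0.83 and 0.16.

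Next to the other members, the nearest tested gene on each side was read in the same fit. Gaps ran from 0.44 kb, between *Smad7* and *Gm20544*, to 1865 kb, between *Tgfbr2* and *Azi2*. *Zmat3* lay 1212 kb from *Skil*, so some of the 16 genes are not close. All 16 of these genes had an edgeR adjusted p over 0.05, beside 4.3% called over all genes, and 4 had an unadjusted p under 0.05, beside 19.1%. The lowest was that of *Nop58*, next to *Bmpr2*, at -0.41 on the log2 scale (adjusted p = 0.0717).

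The genes whose profile over the 4 libraries lay nearest to that of *Bmp7*, by Euclidean distance of centred log2 CPM, were *Rnps1-ps* (0.29), *Gm4070* (0.57), *Gm29650* (0.63), *Arntl2* (0.70) and *Ltf* (0.75). *Rnps1-ps* had 3 and 7 counts under WT and 58 and 51 under cKO. In the other 4 of these genes both WT libraries held 2 counts or fewer, so their distances depend on how such low counts are treated. *Gm29650* lies on the Y chromosome, and *Ltf* encodes lactoferrin, a granule protein of neutrophils. With 4 libraries in 2 groups, many genes share a profile of this shape.

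To place the 9 genes in their pathway, 106 other genes were listed by role. The list was drawn up with earlier results of these data known, and *Id3* was among those. Of the 106, 44 passed the low-count filter, whereas 48 had 3 counts or fewer in every library, among them 24 of the 29 ligands and 10 of the 14 extracellular antagonists. Of the 44 tested, 3 rose, 2 fell and 39 did not pass in the edgeR fit, beside the 4.3% called over all genes. The median log2 fold change of the 44 was 0.15. In the edgeR fit 14 of the 44 had an unadjusted p under 0.05, against 19.1% of all tested genes. The counts of calls were unstable. DESeq2 called 3 of 51 tested, beside 2.9% of all genes. Calls also moved in both directions when 1 library was left out, and calls over all genes moved alike.

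*Id3*, a BMP and TGF-beta target that inhibits E proteins, rose. It was at 49.1 and 48.6 CPM in the WT libraries and 86.1 and 88.4 CPM in the cKO libraries. The difference of 0.84 on the log2 scale (SE 0.11) had an edgeR adjusted p = 0.00511, and the libraries of each label lay close together. Its relative *Id2* was at 93.2 CPM in both WT libraries and 114 and 98.6 CPM in the cKO libraries (adjusted p = 0.406). *Id1*, the classic BMP target, had 4 counts or fewer in every library.

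*Ldlrad4*, a TGF-beta-induced inhibitor of SMAD phosphorylation, rose as well (log2 fold change 0.60, edgeR adjusted p = 0.0279). It was at 55.4 and 52.7 CPM under WT and 87.7 and 76.5 CPM under cKO. Of its 5371 exonic bases, 2852 are shared with genes on the opposite strand, mostly *Fam210a*, and the strand setting of the counting is not stated, so this value is uncertain. *Itgae*, which encodes the integrin CD103 that TGF-beta induces on T cells, fell from 34.0 and 29.4 CPM to 18.9 and 14.7 CPM (log2 fold change -0.92, adjusted p = 0.0267). CD8 T cells also carry CD103. Of 2 CD8 T cell markers *Cd8b1* fell from 42.4 and 52.0 CPM to 27.4 and 22.5 CPM (log2 fold change -0.91, adjusted p = 0.0201) and *Cd8a* did not pass (adjusted p = 0.941). The summed level of both was 47.7 and 58.5 CPM under WT and 34.3 and 26.8 CPM under cKO, and its part in the *Itgae* value was not tested. Of the target genes, then, 2 rose and 1 fell of 6 tested, a small group that holds *Id3*, known when the list was drawn up, beside 4.3% called over all genes. *Klf10* and *Pmepa1* had log2 fold changes of -0.02 and 0.15. *Itgae* and *Ldlrad4* were not called in DESeq2, at log2 fold changes of -0.91 and 0.61 (adjusted p = 0.0715 and 0.0603), nor in edgeR without either WT library, at -0.80 and 0.65 without WT 1 and -1.02 and 0.56 without WT 2.

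Of 6 tested genes that store or activate latent TGF-beta, *Itgav* rose from 58.1 and 48.8 CPM to 84.4 and 95.2 CPM. This was 0.74 on the log2 scale (SE 0.13, edgeR adjusted p = 0.0169). Of the 10744 exonic bases of *Itgav*, 634 are shared with *Gm13684* on the opposite strand. *Itgav* encodes the alpha v integrin chain, which with beta 8 releases active TGF-beta. *Itgb8*, the gene of that partner chain, had 20 and 13 counts under WT and 34 and 46 under cKO (log2 fold change 1.43, adjusted p = 0.0584), which missed the threshold. *Furin*, the protease that cleaves the TGF-beta precursor, had a log2 fold change of 0.47 (adjusted p = 0.0979). It was called at 0.64 without cKO 2 and was at 0.27, not called, without cKO 1. *Nrros*, which anchors latent TGF-beta on myeloid cells, was at -0.14 (adjusted p = 0.592).

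Among 6 other receptors tested, *Eng*, the coreceptor endoglin known from endothelial cells, fell. Counts were 78 and 48 under WT and 18 and 6 under cKO (log2 fold change -2.24, SE 0.39, edgeR adjusted p = 0.0169). The value was -3.14 without cKO 1 and -1.73 without cKO 2. Of its 4048 exonic bases, 61 are shared with *Fpgs* on the opposite strand. The type I receptors *Acvr1b*, at 0.14 (adjusted p = 0.587), and *Acvrl1*, at -0.29 (adjusted p = 0.338), did not pass. *Tdgf1*, the coreceptor of NODAL, had 28 and 26 counts under WT and 9 and 7 under cKO (log2 fold change -1.62, adjusted p = 0.0649), which missed the threshold. The BMP type I receptor gene *Bmpr1a* had 17 counts or fewer in every library and *Acvr1* had 5 or fewer, both under the filter, and *Bmpr1b* was at or under 3.

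Transducers and intracellular regulators gave no call in edgeR or in DESeq2, over 4 SMAD genes and 17 regulators, with an unadjusted p under 0.05 in edgeR for 1 and 4 of them, against 19.1% of all tested genes. *Smad4*, the partner shared by both branches, was at 150.5 and 142.9 CPM under WT and 148.3 and 140.5 CPM under cKO. *Smad5*, of the BMP branch, had a log2 fold change of 0.24 (adjusted p = 0.339). *Ski*, the relative of *Skil* and the gene of highest level on the list per kilobase, was at 0.18 (adjusted p = 0.478; 0.34 and called without cKO 2, 0.009 without cKO 1), and *Fkbp1a*, whose product holds type I receptors inactive, at 0.13 (adjusted p = 0.608). No call was made among 3 ligands and 2 extracellular modulators either, in edgeR or in DESeq2, and 1 ligand had an unadjusted p under 0.05. For the ligands *Gdf11* and *Bmp8b* the values were 0.51 (adjusted p = 0.121, called at 0.60 without cKO 2) and 0.17 (adjusted p = 0.732). For the extracellular modulators *Twsg1* and *Dand5* they were -0.11 (adjusted p = 0.668) and 0.27 (adjusted p = 0.611).

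**Figure D5:**
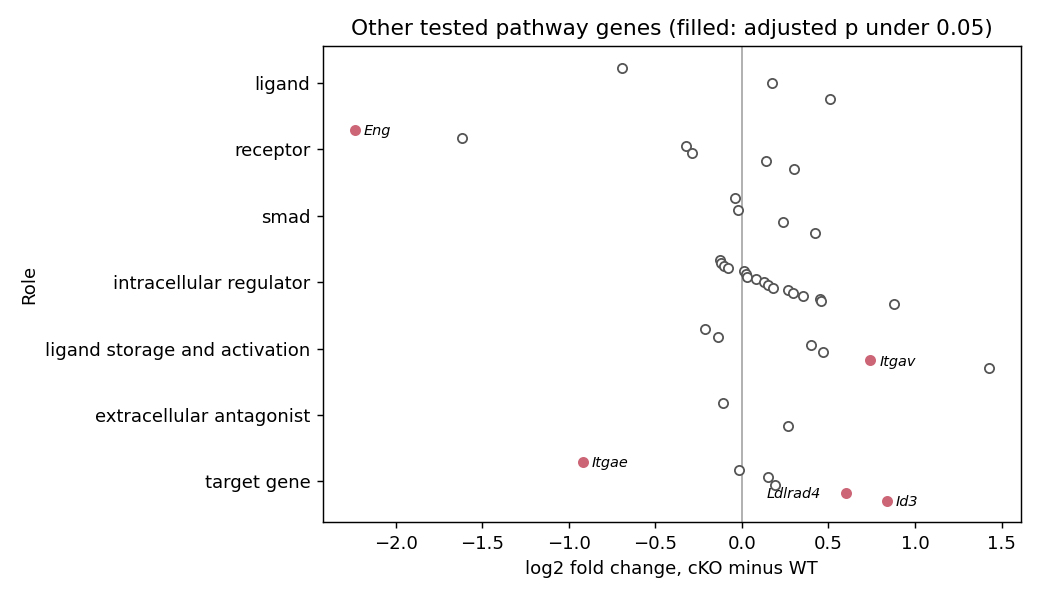
Log2 fold change (cKO minus WT) of the 44 tested pathway genes besides the 9, by role. Filled points passed an adjusted p under 0.05 in the edgeR fit, namely *Eng* and *Itgae* (lower) and *Itgav*, *Ldlrad4* and *Id3* (higher).

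Markers of other cells and of T cell state moved with these results. The summed level of 6 B cell markers was 13 CPM in both WT libraries, 50.9 CPM in cKO 1 and 22.5 CPM in cKO 2. Of 3 tested, 1, *Pax5*, was called higher. *Cd22* was higher in both cKO libraries but not called, and *Cd79b* overlapped, at 5.66 and 6.05 against 13.3 and 4.89 CPM. The sum of 7 myeloid markers was 27.5 and 33.8 CPM under WT and 92.2 and 53.4 CPM under cKO. Of 6 tested, 3, *Lyz2*, *Cybb* and *S100a9*, were called higher. *S100a8* was higher in both cKO libraries but not called. *Csf1r* overlapped, at 17.7 and 19.9 against 38.3 and 18.9 CPM. *Itgam* was lower in both cKO libraries and not called, at 2.14 and 2.24 against 1.33 and 1.06 CPM. The sum of 5 Treg markers was 435 and 361 CPM under WT and 795 and 1006 CPM under cKO. *Foxp3*, at 142 and 121 against 405 and 547 CPM, made up much of that rise, and 3 of 5 were called higher. *Ikzf2* overlapped, at 77.4 and 64.1 against 70.3 and 145.8 CPM. The study reports *Foxp3* derepressed in conventional CD4+ T cells without SATB1, so under the cKO label it does not mark Treg cells alone. Of T cell state markers, *Cd69* and *Il7r* were called higher and *Ccr7* lower (edgeR adjusted p = 0.0292, 0.0257 and 0.0199), and 5 activated or memory markers summed to 382 and 356 CPM under WT and 474 and 459 CPM under cKO. *Cd69* carried that difference, at 136 and 127 CPM against 268 and 186 CPM, while *Cd44*, *Icos* and *Cxcr3* were not called. The sum of 5 naive T cell markers overlapped, at 5500 and 6119 CPM against 6381 and 4589 CPM. The study's methods list B220, CD4 and CD8beta among its flow cytometry lineage antibodies. They do not say whether these were used in the sort for RNA-seq. The part of T cell state and of Treg, B and myeloid cells in the *Bmp7*, *Id3* and *Itgae* values was not tested.

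Platelets store much TGF-beta, and 4 platelet markers summed to 2.29 and 1.57 CPM under WT and 4.95 and 3.83 CPM under cKO, higher in both cKO libraries. *Itga2b*, which did not pass (adjusted p = 0.28), carried most of that sum, at 2.14 and 1.12 against 3.81 and 2.98 CPM. *Ppbp* had 2 counts or fewer in each. Of 5 stromal or endothelial markers *Pdgfra* was at 0 in every library, *Col1a1* had 1 and 2 counts under WT and 5 and 5 under cKO, and the endothelial gene *Cdh5* had 9 and 7 under WT and 3 and 0 under cKO. *Pecam1*, which T cells also express, was at 317 and 364 CPM under WT and 376 and 358 CPM under cKO and made up nearly all of the list's sum, 318 and 367 against 377 and 359 CPM. The part of endothelial cells in the *Eng* value was not tested. Erythroid markers summed to 61.0 and 229 CPM under WT and 8.77 and 118 CPM under cKO, so they varied within labels. Sums of dendritic and NK cell markers were under 4 CPM in every library.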

How the data were processed

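RNA from sorted cells was made into libraries with a NEBNext kit and sequenced by the authors as 50-base reads. The deposited values are raw counts of reads per gene, which the authors made by aligning to mm10 with HISAT2 2.1.0 and counting with HTSeq (0.11.1 in the submitters' processing notes). The annotation and strand setting are not given in the sources used here. By default HTSeq leaves out reads on more than 1 gene or place. Summary lines were kept out of all tests. Reads outside features were 59.4% to 64.5% of those placed once.

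Counts were filtered with filterByExpr, scaled by TMM and tested in R 4.3.3 with edgeR 4.0.16 (quasi-likelihood F test on genotype label, two-sided, Benjamini-Hochberg over 12403 genes, called at an adjusted p under 0.05). CPM uses TMM-scaled library sizes, and CPM per kilobase divides it by exonic length. The SE is the log2 fold change divided by the square root of F, and 95% intervals use moderated degrees of freedom. Intervals and p-values reflect read sampling and the spread among these 4 libraries, and the labels name no animals. Reads carry no molecular identifiers. An exact permutation test of 2 against 2 libraries cannot go below p = 0.333. Replicates differed beyond sampling noise (chi-square per degree of freedom 3.01 for WT and 7.28 for cKO), so each was counted once. Positions and exonic lengths came from GENCODE M21 (GRCm38), which placed 53186 of the 55367 symbols. Alternatives included DESeq2 1.42.0. The procedure was tested on simulated data. Figures were drawn with matplotlib 3.10.9.

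The 9 genes and all lists were chosen with earlier results of these data known. Named genes were the 9, pathway genes that were called, the 2 of highest CPM per kilobase in each role, the 5 nearest in profile to *Bmp7*, chromosomal neighbours, *Satb1*, *Foxp3* and markers that moved with a result. *Itgb8*, *Tdgf1*, *Pmepa1*, *Klf10*, *Id1*, *Bmpr1a*, *Bmpr1b* and *Acvr1*, the sex-linked genes, and markers that were not called, were named outside this rule after their values were seen.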

Additional observations from a re-analysis of the deposited data

How the results depend on the processing

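The log2 fold change of *Bmp7* ran from 2.76 to 3.62 over 12 alternatives, both ends when a WT library was left out. Leaving out a library left 1 in that group, assumed to vary like the other group. The number of genes called, 533, was 1367 without the low-count filter, 1165 with the replicate block and 153 at an adjusted p under 0.01, and ran from 180 (without WT 2) to 1790 (without cKO 2) over the fits on 3 libraries. It was 1491 without cKO 1. Of the 9 genes, 2 were called without the filter, *Tgfbr2* joining *Bmp7*, and from 1 to 5 over the fits on 3 libraries. Of the 44 pathway genes tested, 5 were called. This became 3 in DESeq2, 12 of 74 without the filter, 10 with the replicate block, 1 at an adjusted p under 0.01, and from 0 to 14 over the fits on 3 libraries. The 3 in DESeq2 were of 51 list genes tested there. Calls over all tested genes moved as well. They were 2.9% in DESeq2 (393 genes), 5.72% without the filter and 9.39% with the replicate block, beside 4.3% in the main fit. The cause of these changes was not tested. *Smad4*, at -0.024, ran from -0.067 to 0.021 when libraries were left out in turn, and changed sign without WT 1 (0.021) and without cKO 2 (0.015). Without WT 2 calls were lost at values of 0.83 for *Id3*, -2.31 for *Eng* and 0.62 for *Itgav*, and without WT 1 and WT 2 in turn at -0.80 and -1.02 for *Itgae* and 0.65 and 0.56 for *Ldlrad4*. *Furin* and *Gdf11* were called without the filter, with the replicate block and without cKO 2. Replicate numbers do not pair mice in the labels, and the correlation, across genes, of deviations between libraries of equal number was 0.064. Genes with few counts, such as *Eng* and *Itgb8*, are limited by depth.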
